A study of Mus musculus with 19 samples.

Results

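The lysosomal genes described here were 38 named genes, each found by its symbol among 24537 genes in the table of read counts: 26 soluble hydrolases with their activator, 5 membrane proteins, 6 subunits of the proton pump and Tfeb. All 38 were in the table and all passed the filter on low counts.

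The lysosome is the acidic compartment in which cells break down material taken up from outside or delivered by autophagy. A proton pump in its membrane, the vacuolar ATPase, acidifies the lumen, and soluble hydrolases, most of them carried there by mannose 6-phosphate receptors, cut proteins, glycans, sulfated sugars and lipids. In hepatocytes, the parenchymal cells that carry most of the liver's metabolism, lysosomes degrade endocytosed proteins, glycogen, lipid droplets and worn-out organelles, and the transcription factor TFEB and its relatives can raise many of these genes together.

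Polyadenylated RNA was sequenced from hepatocytes of 19 male mice of the C57BL/6J strain, all wild type and with no treatment named in the labels. The young group was 10 mice labelled 5 months old and the old group was 9 mice labelled 24 months old, with 1 library per mouse. The mice were culled on 2 days 23 days apart, the first with 5 young and 5 old mice and the second with 5 young and 4 old mice. Hepatocytes had been freed by perfusion of the liver with no sort named, so other liver cells can be present, and single mice are named by the library numbers in their labels.

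Library totals over genes ran from 17381439 to 19583059 in young and from 18156240 to 20287628 in old mice. Hepatocyte markers summed to 90872 to 149010 CPM (counts relative to a library total scaled by edgeR's trimmed mean of M-values) in young and 115672 to 193460 CPM in old mice. This sum was mostly Alb, 67.2% to 78.1% of it in young and 76.8% to 83.6% in old mice, and of the 9 hepatocyte markers 2 were called higher and 4 lower, with a median log2 fold change of -0.30. Most macrophage, endothelial and stellate markers were higher in old mice. The threshold was edgeR's quasi-likelihood test with a Benjamini-Hochberg adjusted p under 0.05. It was passed by 13 of 14 macrophage genes, 9 of 12 endothelial genes and all 11 tested of 12 stellate genes. In these lists the genes of smallest p were Lyz2 with a log2 fold change of 2.48 ± 0.61 (SE), Fcgr2b with 0.90 ± 0.17 and Lrat with 1.52 ± 0.18. Of 5 cholangiocyte genes 2 were tested and 0 called. Their sum had a mean of 29.7 CPM in young and 20.8 CPM in old mice. No T and NK cell gene was tested, while 1 of 5 B cell genes and 1 of 6 neutrophil genes were, both called higher. Old mouse 1187 stood apart, with a macrophage sum of 3357 CPM where the next old mouse had 822. Mouse 1187 was also the highest old mouse for the stellate sum, at 398 CPM with the next at 199, and for the endothelial, lymphocyte and neutrophil sums. Young mice 1184, 1186 and 1188 had Alb at 61168 to 62616 CPM, the lowest of the young mice, while their summed other hepatocyte markers were at 29548 to 30410 CPM beside 29667 to 35869 in the other young mice.

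Levels were compared between genes as TPM, counts divided by gene length and set to the same sum in each library, and as means over the 19 mice. Lamp1, the abundant glycoprotein that lines the lysosomal membrane, had the highest level at 464 TPM, 12.1% of the summed TPM of the 38 genes. It was followed by the aspartic protease gene Ctsd at 350.2 TPM, the cysteine protease gene Ctsl at 346 and the sphingolipid activator precursor gene Psap at 333. With Ctsh, Ctsz, Lamp2 and Ctsb, these genes made up 69.4% of the sum. At the low end were Galc at 3.39 TPM, Idua at 3.7, Tfeb at 4.21, Ids at 4.66 and Cd63 at 6.46. Neighbours in this order were often closer than the spread between mice: in young mice Ctsd was at 312 ± 25.6 TPM (SD, n = 10) and Ctsl at 334 ± 97.6 TPM (SD, n = 10). Summed over the 38 genes, young mice had 3531 ± 169 TPM (SD, n = 10) and old mice 4198 ± 776 TPM (SD, n = 9). Mouse 1187 had 6141 TPM, and without it old mice were at 3955 ± 286 TPM (SD, n = 8).

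**Figure D1:**
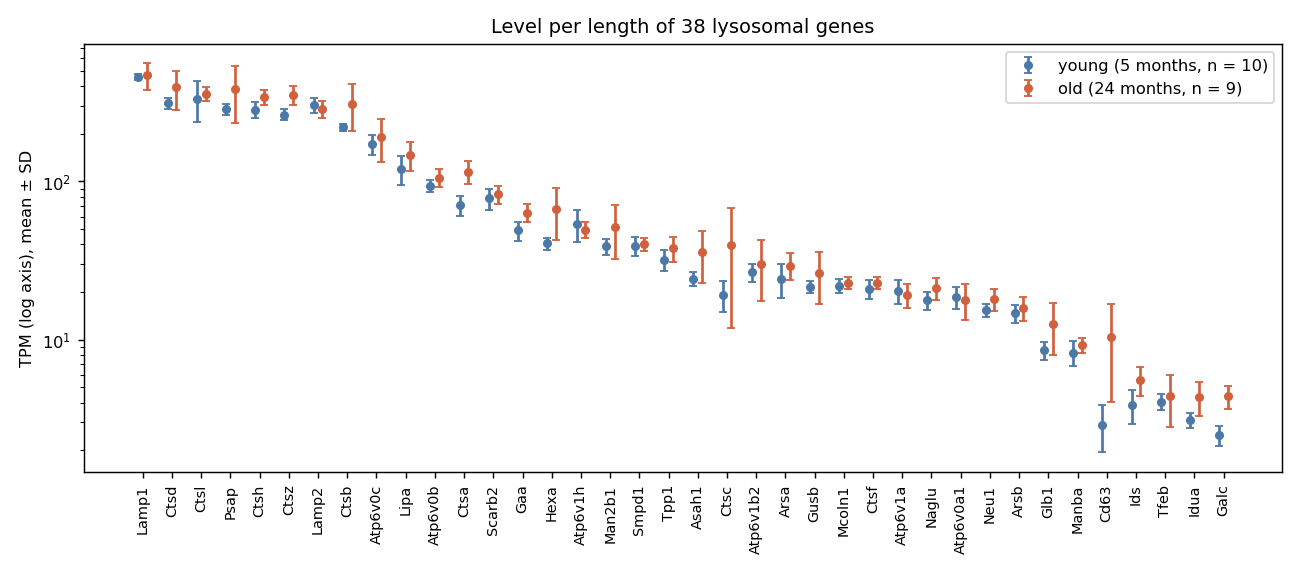
Level of each of the 38 lysosomal genes in TPM on a log axis, ordered by the mean over all mice, with points for the mean of 10 young and 9 old mice and bars for the SD. Levels run from 464 TPM for Lamp1 to 3.39 TPM for Galc, and the bars of old mice are long for Ctsc and Cd63.

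The question of the comparison was which of these genes differ between young and old hepatocytes. With cull day as a covariate, 13 of the 38 genes rose in old mice, against 16.3% of the 12269 genes tested, and 1 fell, against 14.5%. As shares of the 38 these are 34.2% and 2.63%. The genes that rose were Cd63, Ctsa, Ctsb, Ctsc, Ctsh, Ctsz, Gaa, Galc, Glb1, Hexa, Idua, Ids and Asah1, and the one that fell was Atp6v1a. The median log2 fold change over the 38 was 0.16, with 29 values above 0, and over all genes tested it was -0.0034. At an unadjusted p under 0.05 the counts were 17 higher and 3 lower, against 21.8% and 20.5% of all genes. These members were named with earlier results of the same data known, so the counts are given as a description of the list. In RNA from a mixture of cells, more cells of a type and more RNA per cell cannot be told apart.

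By role, 12 of the 26 hydrolases and activator rose and 0 fell by edgeR's test (16 higher and 0 lower at an unadjusted p under 0.05, and 12 higher and 0 lower with DESeq2), with a median of 0.26 and 25 of 26 values above 0. The number higher was 3 on the first cull day alone, against 1.88% of all genes, and 8 with a macrophage marker score as a covariate, against 9.91%. It was 8 omitting young mice 1184, 1186 and 1188, against 14.6%, and 3 with a score of several other cell types, against 6.63%. Within them were 5 of 9 cathepsins and other peptidases (median 0.23), 5 of 10 glycosidases (median 0.30), 1 of 3 sulfatases (median 0.20) and 1 of 4 lipid hydrolases with their activator (median 0.25). The membrane proteins had 1 of 5 higher with a median of -0.026, and the pump subunits 1 of 6 lower with a median of -0.074. These counts are 20% and 16.7% of their groups, near the 16.3% higher and 14.5% lower of all genes tested. Differences between the roles were not tested.

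**Figure D2:**
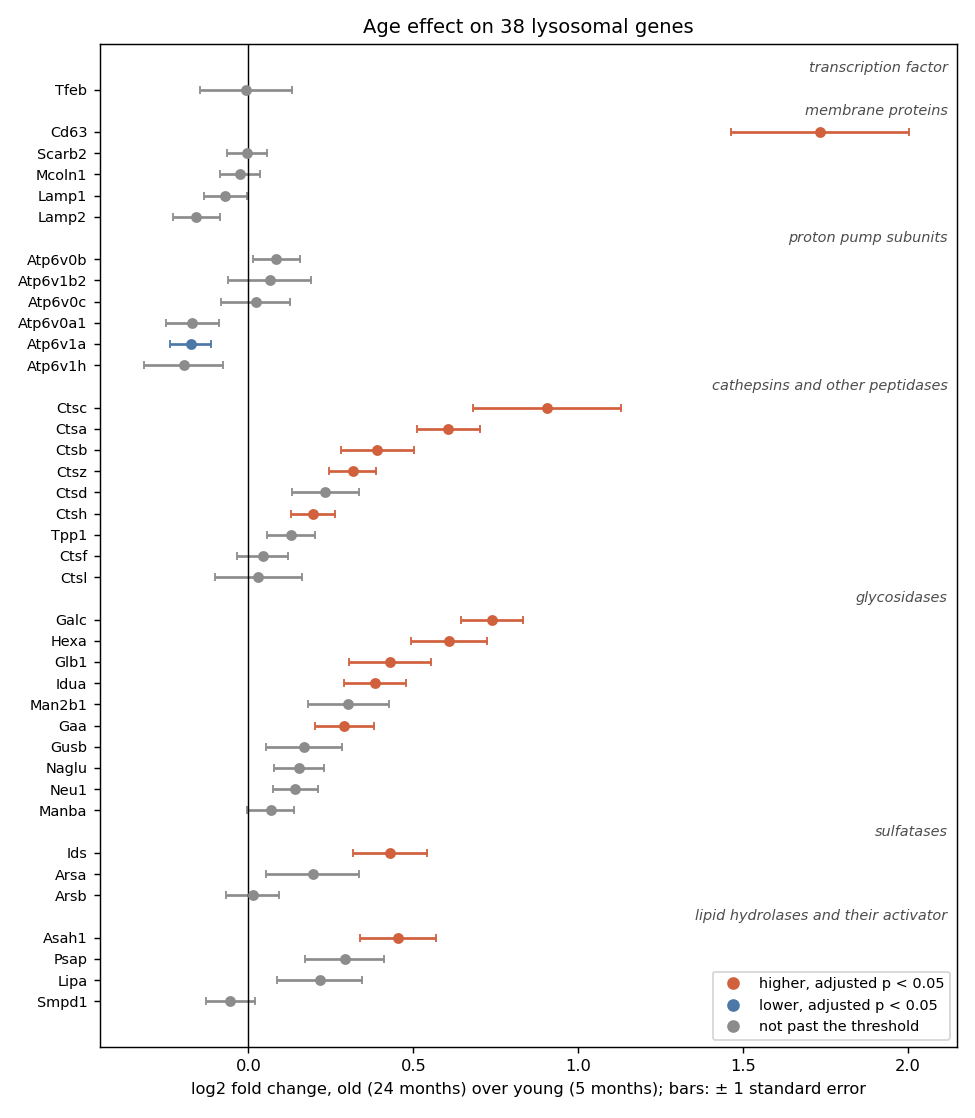
Log2 fold change of old over young for each of the 38 genes, grouped by role, with bars of 1 standard error either side from edgeR and colour for genes past the threshold. Cd63 lies at 1.73, all 9 peptidase and 10 glycosidase points lie above 0, and the pump subunits lie between -0.20 and 0.08.

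Tfeb encodes a basic helix-loop-helix factor that moves to the nucleus when the kinase complex mTORC1 is inactive and binds E-box sequences near the start of lysosomal genes. Its transcript ran from 4.27 to 6.15 CPM with a median of 5.48 in young mice and from 3.79 to 8.47 CPM with a median of 4.85 in old mice. The ages overlapped: 2 old mice, 1183 and 1187, lay above every young mouse and 2 below. The log2 fold change was -0.01 ± 0.14 (SE) with an adjusted p of 0.974 by edgeR. Of the related factors, from the list of other lysosomal genes, Tfe3 at -0.10 ± 0.086 and Mitf at -0.04 ± 0.19 were not past the threshold either. Tfec, named after its values were seen, rose, by 1.38 ± 0.44 (adjusted p = 0.0236 by edgeR), running from 0.579 to 1.42 CPM with a median of 0.832 in young mice and from 0.468 to 10.8 CPM with a median of 1.75 in old mice. Its call was lost without mouse 1187, omitting young mice 1184, 1186 and 1188, on the first cull day alone and with either marker score, described below, as a covariate. The transcript level does not measure where the protein is.

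Promoter sequences were taken from RefSeq (GRCm38.p6), 250 bases before to 50 after each start, and matched 33 of the 38 symbols with 39 windows. The E-box CACGTG, which reads the same on both strands, was in 30.8% of these windows, in 9.92% of windows of all genes tested and in 7.15% of all 32851 windows. The longer TCACGTGA, also the same on both strands and containing the former, is the core of the element known for this network. It was in 10.3% of the members' windows, 1.83% of those of tested genes and 0.974% of all windows. The members holding it were Ctsa, Atp6v1a, Ctsd and Mcoln1. They are shown because their age effects went different ways: Ctsa rose, Atp6v1a fell, and Ctsd and Mcoln1 were not past the threshold. Capitals mark the 8-base motif, each stretch is 5′ to 3′ on the gene's strand, and the Ctsa stretch from chr2:164833720-164833788 (+) holds it at 2 places, 13 bases before and 4 after the start.
Ctsa: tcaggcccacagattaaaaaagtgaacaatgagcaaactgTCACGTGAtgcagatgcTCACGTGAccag
The other stretches are chr16:44139380-44139431 (-), chr7:142387915-142387966 (-) and chr8:3500433-3500484 (+), with the motif starting 132, 99 and 46 bases before the RefSeq start, which for Atp6v1a lies upstream and for Ctsd downstream of the start in the count table.
Atp6v1a: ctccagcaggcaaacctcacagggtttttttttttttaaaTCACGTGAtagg
Ctsd: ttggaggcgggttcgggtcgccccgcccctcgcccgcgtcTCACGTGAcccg
Mcoln1: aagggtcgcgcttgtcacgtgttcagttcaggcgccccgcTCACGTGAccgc
Among genes that rose, 27.3% of 11 windows held the shorter E-box (Ctsa, Gaa and Glb1), and among the remaining members 32.1% of 28 windows did. Galc and Hexa, described below, had none in their windows. A match is a description of the letters, not of binding.

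Of the membrane proteins, Cd63, a tetraspanin of late endosomes and secreted vesicles, had the largest log2 fold change of the 38. It lies at chr10:128909866-128912818 in mm10, the build of the count table. Its level ran from 0.421 to 2.13 CPM with a median of 1.52 in young mice and from 2.97 to 11.3 CPM with a median of 3.94 in old mice. All 9 old mice were above all 10 young mice, and mouse 1187 was highest. Old mice differed from young by 1.73 ± 0.27 (SE) on the log2 scale with an adjusted p of 0.000246 by edgeR, and 1.48 without mouse 1187. It is also the membrane protein of lowest level, with 8 to 39 raw reads in young and 58 to 257.5 in old libraries.

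The other membrane proteins were not past the threshold. Lamp1 and its partner Lamp2, which also serves in chaperone-mediated autophagy, had log2 fold changes of -0.07 ± 0.065 and -0.16 ± 0.071. For Lamp2 the adjusted p was 0.0974 by edgeR, and DESeq2, or edgeR without old mouse 1181, called it lower. Scarb2, the receptor that carries glucocerebrosidase to the lysosome, was at -0.0041 ± 0.06, and Mcoln1, a calcium channel of the lysosomal membrane, at -0.03 ± 0.062. Lamp1 had the lowest relative spread of the 38 genes in young mice, a coefficient of variation of 3.46%. In old mice 5 of 9 were below every young mouse and mouse 1187 was above every young mouse.

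Atp6v1a encodes the catalytic A subunit of the pump's cytosolic V1 sector and lies at chr16:44085404-44139019. It ran from 36.7 to 53.4 CPM with a median of 44.8 in young mice and from 33.6 to 48 CPM with a median of 39.7 in old mice. The ages overlapped, with 3 old mice below every young mouse. Its log2 fold change was -0.18 ± 0.062 (SE) with an adjusted p of 0.0373 by edgeR, and the call was lost in 11 of 19 fits that left out 1 mouse and with scaling by library totals. Within days the young mice differed, 51.0 ± 2.77 CPM (SD, n = 5) on the first day and 39.6 ± 3.16 CPM (SD, n = 5) on the second, and old mice were at 42.9 ± 4.78 (n = 5) and 37.2 ± 2.79 CPM (n = 4).

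The 5 other pump subunits were not past the threshold. Atp6v0a1, of the membrane-bound V0 sector, was at -0.17 ± 0.08, and Atp6v1h, a regulatory V1 subunit, at -0.20 ± 0.12, or -0.09 without young mouse 1239. Without mouse 1187 Atp6v0a1 was at -0.23 and passed the threshold (adjusted p = 0.0275 by edgeR). The nucleotide-binding V1 subunit Atp6v1b2 was at 0.06 ± 0.13, and the V0 ring subunits Atp6v0b and Atp6v0c at 0.08 ± 0.071 and 0.02 ± 0.11. The count table gives Atp6v0c and its pseudogene Atp6v0c-ps2 positions that overlap by 5530 bases on the same strand, with 107 CPM in young and 111 CPM in old mice for the pseudogene, so reads of the gene may be shared and its value is uncertain.

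Among the peptidases, Ctsa, a serine carboxypeptidase that also protects neuraminidase and beta-galactosidase in a complex, separated the ages fully. The gene (chr2:164833773-164841032), whose promoter stretch is printed above, ran from 104 to 169 CPM with a median of 135 in young mice and from 171 to 239.9 CPM with a median of 194 in old mice. Every old mouse was above every young mouse. On the log2 scale the age effect was 0.61 ± 0.10 (SE), adjusted p = 0.000284 by edgeR. Its span overlaps that of Pltp on the opposite strand by 1515 bases, and Pltp rose as well, by 1.04 (adjusted p = 0.0322 by edgeR). The library was stranded per the labels, but the strand setting of the counting is not given in the sources used here, so reads in the overlap cannot be assigned.

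Ctsc, which activates granule serine proteases by removing dipeptides, ran from 58.4 to 104 CPM with a median of 78.5 in young mice and from 88.5 to 396 CPM with a median of 139.6 in old mice. Mouse 1187 was highest by far, the next old mouse was at 158 CPM, and 7 of 9 old mice were above every young mouse. EdgeR gave a log2 fold change of 0.91 ± 0.22 (SE), adjusted p = 0.00643, and 0.62 ± 0.14 without mouse 1187. Ctsb, a broad cysteine protease, ran from 542 to 669 CPM with a median of 609.6 in young mice and from 621 to 1281 CPM with a median of 732 in old mice. Again 7 old mice were above every young mouse with 1187 highest. The log2 fold change was 0.39 ± 0.11 (SE), adjusted p = 0.0129 by edgeR, and its span overlaps that of Fdft1 on the opposite strand by 773 bases, a gene not past the threshold at 0.17.

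Ctsz, a carboxypeptidase, ran from 174 to 251 CPM with a median of 222 in young mice and from 236 to 312 CPM with a median of 262 in old mice. Old mice were above every young mouse in 6 of 9 cases. Old mice differed from young by 0.32 ± 0.071 (SE) on the log2 scale, adjusted p = 0.00357 by edgeR. Ctsh, an aminopeptidase, ran from 216 to 315 CPM with a median of 261 in young mice and from 243 to 323 CPM with a median of 302 in old mice. The ages overlapped widely, with 1 old mouse above every young mouse. On the log2 scale the age effect was 0.20 ± 0.066 (SE), adjusted p = 0.0317 by edgeR, and the call was lost in 9 of 19 fits that left out 1 mouse.

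The peptidases not past the threshold were Ctsd at 0.23 ± 0.10, the tripeptidyl peptidase gene Tpp1 at 0.13 ± 0.073, Ctsf at 0.04 ± 0.077 and Ctsl at 0.03 ± 0.13. Ctsd was at 0.14 ± 0.08 without mouse 1187 and passed the threshold without old mouse 1183, at 0.28. Ctsl was spread widely in young mice. Young mice 1184, 1186 and 1188 had 885, 1065 and 834 CPM, the other 7 young mice had 445 to 635 CPM, and the 9 old mice had 515 to 759 CPM. The 3 high values were all above the old range and the other 7 below the old median of 681 CPM. These 3 mice also had the lowest Alb of the young mice and macrophage marker sums of 244 to 524 CPM, and the part of either in the Ctsl values was not tested. Leaving them out, Ctsl was at 0.30 ± 0.09, a value that has to lie above the former one since the 3 highest young values are gone, so its call in that fit is no independent result.

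The glycosidases clip single sugars from glycoproteins, glycolipids and glycosaminoglycans. Galc, which removes galactose from galactosylceramide, had the smallest p of the 38 genes and lies at chr12:98202300-98259459. It ran from 4.18 to 6.57 CPM with a median of 5.36 in young mice and from 8.11 to 12.1 CPM with a median of 8.55 in old mice. All old mice were above all young mice. EdgeR gave a log2 fold change of 0.74 ± 0.094 (SE), adjusted p = 5.36e-05. Hexa, the alpha subunit of beta-hexosaminidase (chr9:59539540-59565109), also separated the ages, running from 39.7 to 53 CPM with a median of 45.7 in young mice and from 57.8 to 122 CPM with a median of 63.6 in old mice. Mouse 1187 was the highest and the next old mouse was at 75.7 CPM. The log2 fold change was 0.61 ± 0.12 (SE), adjusted p = 0.00118 by edgeR, and 0.48 ± 0.07 without that mouse.

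Gaa, the acid alpha-glucosidase that degrades lysosomal glycogen, ran from 73.3 to 116 CPM with a median of 102 in young mice and from 99.9 to 141 CPM with a median of 124 in old mice. In 5 old mice it was above every young mouse, and mouse 1187 at 104 CPM was among the low old values. Old mice differed from young by 0.29 ± 0.089 (SE) on the log2 scale, adjusted p = 0.0195 by edgeR. Young mice 1184, 1186 and 1188 had the 3 lowest Gaa values, 73.3, 89.2 and 85.6 CPM, and without them the log2 fold change was 0.15 ± 0.08 and the call was lost. Glb1, the beta-galactosidase behind the staining used as a senescence marker, ran from 9.9 to 15 CPM with a median of 11.9 in young mice and from 11.7 to 26.8 CPM with a median of 14.4 in old mice. In 4 old mice it was above every young mouse. On the log2 scale the age effect was 0.43 ± 0.12 (SE), adjusted p = 0.0148 by edgeR. Tmppe lies within the span of Glb1 on the same strand, overlapping it by 10107 bases, so reads may be shared between them.

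Idua, which removes iduronic acid from dermatan and heparan sulfate, ran from 7 to 9.27 CPM with a median of 7.59 in young mice and from 8.46 to 14.1 CPM with a median of 9.92 in old mice. In 6 old mice it was above every young mouse. EdgeR gave a log2 fold change of 0.38 ± 0.093 (SE), adjusted p = 0.00576. The value is uncertain: Slc26a1, at 175 CPM in young and 149 CPM in old mice, overlaps the span of Idua by 5485 bases on the opposite strand, and it fell, with a log2 fold change of -0.24. The glycosidases not past the threshold were Man2b1 at 0.30 ± 0.12, Gusb at 0.17 ± 0.11, Naglu at 0.15 ± 0.076, the sialidase gene Neu1 at 0.14 ± 0.067 and Manba at 0.07 ± 0.072. Without mouse 1187 Man2b1 was at 0.17 ± 0.08 and Gusb at 0.04 ± 0.07. Man2b1 passed the threshold without old mouse 1183 or 1189, and Neu1 without 1189. Man2b1 and Manba act on mannosides, Gusb on glucuronides and Naglu on heparan sulfate.

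Sulfatases remove sulfate groups from sugars and lipids. Ids, which acts on iduronate 2-sulfate just before Idua in the same pathway, ran from 7.53 to 15.5 CPM with a median of 10.1 in young mice and from 11.4 to 19.3 CPM with a median of 14.5 in old mice. The ages overlapped, with 3 old mice above every young mouse and all 9 above the young median. The log2 fold change was 0.43 ± 0.11 (SE), adjusted p = 0.00897 by edgeR. Arsa, which desulfates sulfatide, was at 0.20 ± 0.14 and Arsb, which acts on dermatan sulfate, at 0.01 ± 0.081, and neither passed the threshold. Arsa was at 0.12 without old mouse 1181, -0.079 on the second cull day alone and -0.048 omitting young mice 1184, 1186 and 1188, its 3 lowest young values.

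Asah1, the acid ceramidase, was the lipid hydrolase that rose. It ran from 26.3 to 35.2 CPM with a median of 30.7 in young mice and from 28.5 to 72.8 CPM with a median of 40.3 in old mice. In 8 of 9 old mice it was above every young mouse, with mouse 1187 highest and the next at 42.0 CPM. Old mice differed from young by 0.45 ± 0.11 (SE) on the log2 scale, adjusted p = 0.00735 by edgeR, and 0.32 ± 0.07 without that mouse. Psap, the precursor of the saposins that present sphingolipids to their hydrolases, was at 0.29 ± 0.12 (adjusted p = 0.0696 by edgeR). Without mouse 1187 it was at 0.17 ± 0.08, and without old mouse 1183 it passed the threshold at 0.32 (adjusted p = 0.048 by edgeR). Lipa, the acid lipase for cholesteryl esters and triglycerides, was at 0.22 ± 0.13, or 0.02 omitting young mice 1184, 1186 and 1188, which held its 3 lowest young values. Smpd1, the acid sphingomyelinase, was at -0.05 ± 0.074. The latter was the hydrolase with a value below 0.

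**Figure D3:**
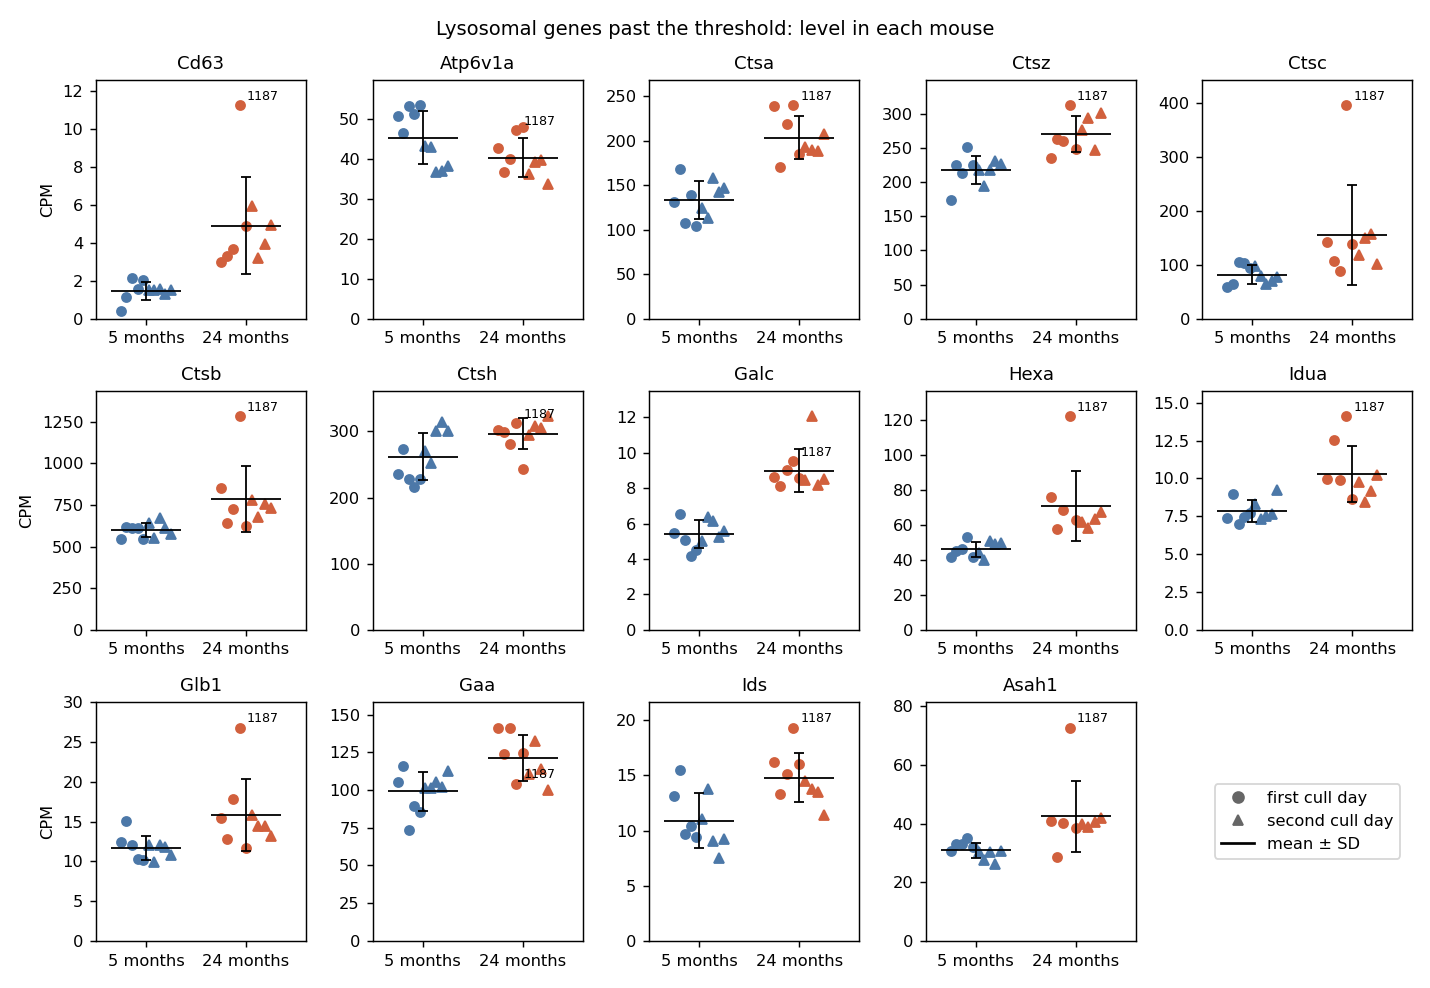
Level in CPM of the 14 genes past the threshold in each mouse, young in blue and old in orange, circles for the first cull day and triangles for the second, with lines for the mean and SD and old mouse 1187 marked. The ages do not overlap for Cd63, Ctsa, Galc and Hexa, and mouse 1187 stands far above the other old mice for Ctsb, Ctsc, Glb1, Hexa and Asah1. The share of all genes tested without such overlap is not given, so the separation is a description of these genes.

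Old mouse 1187 was the highest of the 9 old mice for 21 of the 38 genes and the lowest for 2. Relative to the median of the other old mice it was at 3.07 times for Ctsc, 2.95 times for Cd63, 2.05 times for Atp6v1b2 and 2.04 times for Psap. For Gaa it was at 0.839 times, for Ctsl at 0.955 times and for Lamp2 at 0.887 times. The median coefficient of variation of the 38 genes was 15.4% in old mice, 11.2% in old mice without 1187 and 12.8% in young mice. Without this mouse 12 genes were called higher, against 12.4% of all genes, with Ctsh lost. Omitting young mice 1184, 1186 and 1188, Ctsb, Ctsh, Gaa, Glb1, Ids and Atp6v1a lost their call, where 14.6% of all genes were called higher.

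The macrophage marker sum ran from 106 to 524 CPM in young and from 68.6 to 3357 CPM in old mice, and none of its 14 genes was at 0 in any library. On the log2 scale old mice were higher by 1.18 with a two-sided exact permutation p of 0.0339 within cull days, and 2 of 9 old mice were above every young mouse. Without mouse 1187 this difference in macrophage marker level was 0.80 with an exact permutation p of 0.0889. The endothelial sum ran from 195 to 368 CPM in young and 207 to 694 in old mice, and the stellate sum from 40.9 to 112 and from 104 to 398 CPM.

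With the macrophage score, the mean log2 CPM of its list, as a covariate, 9 of the 38 genes were called higher, against 9.91% of all genes tested, and 2 lower, against 9.47%. Ctsb, Ctsh, Glb1 and Asah1 lost their call, and the value of Ctsc went from 0.91 to 0.48. With a score of macrophage, endothelial, stellate and lymphocyte lists as the covariate, 4 were called higher, against 6.63%, and 3 lower, against 6.38%. The 4 were Cd63 at 1.08 ± 0.22 (SE), Ctsa at 0.55 ± 0.12, Gaa at 0.46 ± 0.10 and Galc at 0.76 ± 0.12. The pump subunits Atp6v1a at -0.27, Atp6v0a1 at -0.35 and Atp6v1b2 at -0.31 were the 3 lower. Asah1 was then at 0.08 ± 0.08, Ctsb at 0.13 ± 0.11 and Ctsc at 0.28 ± 0.16. Of the lymphocyte lists only 1 B cell gene passed the filter, so lymphocytes enter the second score by that gene alone. Both scores themselves differ with age, so a covariate also takes up age effects that run along with them.

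**Figure D4:**
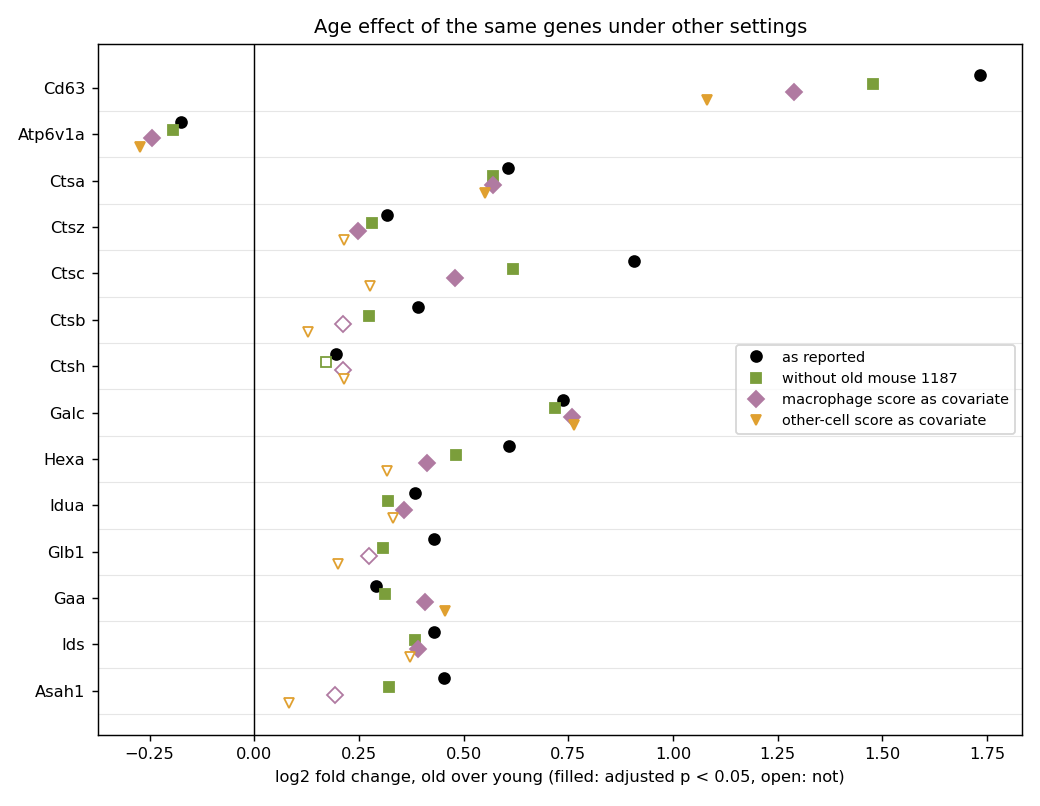
Log2 fold change of old over young for the 14 genes past the threshold, as reported, without old mouse 1187, and with a macrophage or an other-cell score as covariate, filled where the adjusted p is under 0.05. Galc and Ctsa move little, while Ctsc, Ctsb, Hexa and Asah1 lie lower with the covariates and Gaa higher.

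On the first cull day alone 3 genes were called higher (Ctsa, Galc and Hexa), against 1.88% of all genes tested that day, and on the second 10 were, against 12.2%, 9 of the 13 and Ctsl. The 13 genes that rose had values above 0 on both days. Gaa was at 0.44 ± 0.14 on the first day and 0.13 ± 0.09 on the second, and Galc at 0.76 ± 0.14 and 0.72 ± 0.14. No gene showed an interaction of age and cull day by edgeR (0 of 38, smallest adjusted p 0.708, against 0% of all genes). At an unadjusted p under 0.05 there were 4 members, Ctsl, Psap, Atp6v0b and Tfeb, and 799 of all genes. Ctsl was at -0.26 ± 0.19 on the first day, which held young mice 1184, 1186 and 1188, and 0.35 ± 0.10 on the second, where it passed the threshold (adjusted p = 0.0305 by edgeR).

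A wider list of 119 other lysosomal genes had 110 that passed the filter, of which 29 rose (26.4%, against 16.3% of all genes tested) and 10 fell (9.09%, against 14.5%), with a median log2 fold change of 0.077. Hydrolases and their cofactors were again on the high side, with 17 of 36 higher, 0 lower by edgeR (0 lower also at an unadjusted p under 0.05 and with DESeq2) and a median of 0.21. With the macrophage score as a covariate 3 of these 36 hydrolases were called higher, where 9.91% of all genes were. The number higher was 3 with the other-cell score, against 6.63%, and 11 omitting young mice 1184, 1186 and 1188, against 14.6%. By day it was 1 on the first cull day alone, against 1.88%, and 14 on the second, against 12.2%. Those named among the genes of smallest p that rose are Npc2, Tcirg1, Rragd and Galns. Npc2, which passes cholesterol out of the lysosome, was at 0.65 ± 0.11 (SE), running from 59.5 to 77.4 CPM with a median of 70.4 in young mice and from 80.7 to 185 CPM with a median of 102 in old mice, with no overlap of the ages. Tcirg1, a pump subunit found mainly in osteoclasts and immune cells, was at 0.51 ± 0.092. The sulfatase gene Galns was at 0.83 ± 0.16. Rragd, a nutrient-sensing GTPase, was at 1.30 ± 0.24 with medians of 0.469 and 1.36 CPM. Without mouse 1187 the number of the 110 that rose was 17, where 12.4% of all genes rose.

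The 5 of smallest p that fell were Atp6v0a2, Ap3m1, Rptor, Slc46a3 and Abca2. Atp6v0a2, the pump's V0 subunit a2, was at -0.32 ± 0.058 (SE), with 7 of 9 old mice below every young mouse. Ap3m1, of the adaptor that sorts membrane proteins to lysosomes, was at -0.65 ± 0.13, and Rptor, the scaffold of mTORC1, at -0.40 ± 0.086. The transporter genes Slc46a3 and Abca2 were at -0.56 ± 0.17 and -0.38 ± 0.11. Both lost their call on either cull day alone and omitting young mice 1184, 1186 and 1188, where Slc46a3 was at -0.33 and Abca2 at -0.37, and Abca2 also with either marker score. On the first day alone 1 of the 110 was called higher and 0 lower by edgeR, where 1.88% of all genes were higher and 1.79% lower. The 9 genes named here from the wider list were not called that day, and all 9 had an unadjusted p under 0.05. The other pump subunits, 13 tested, had 2 higher and 3 lower, against 16.3% and 14.5% of all genes. The number lower was 1 with library totals, on the second cull day alone and omitting the 3 young mice, where 9.53%, 7.15% and 12.5% of all genes were lower, and 0 on the first day alone. The mannose 6-phosphate receptors M6pr and Igf2r, which deliver the hydrolases, were not past the threshold, at 0.07 ± 0.069 and -0.27 ± 0.10 (adjusted p = 0.051 by edgeR for Igf2r). Igf2r was called lower with DESeq2, with edgeR on DESeq2's size factors, with no low-count filter, in 5 of 19 fits that left out 1 mouse, and omitting the 3 young mice, where it was at -0.37.

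**Figure D5:**
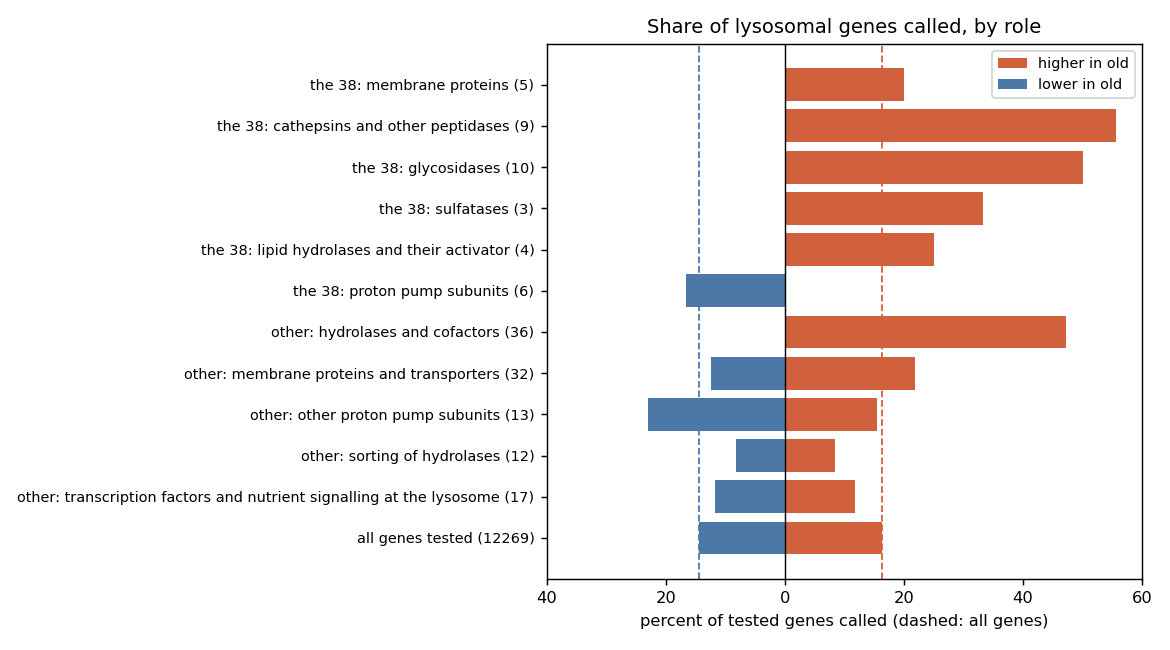
Percent of tested genes past the threshold in role groups of the 38 genes and of the wider list, higher in old mice to the right and lower to the left. Tfeb, alone in its group, is not drawn. The number tested is in brackets and dashed lines are at the shares of all genes, 16.3% and 14.5%. The bars of peptidases, glycosidases and the other hydrolases reach furthest to the right, and those of the pump subunits furthest to the left. The pump bars to the left stand for 1 of 6 genes (16.7%) and 3 of 13 genes (23.1%).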

How the data were processed

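For 19 hepatocyte libraries, 1 per mouse, the authors deposited estimated counts by gene in 1 table. Per the file headers it was made with HOMER's analyzeRepeats over exons of mm10 RefSeq genes, and STAR and HOMER are named in the submitters' processing notes with no version. The deposited values are multiples of 0.5 and 29.2% of cells are not whole, so they were rounded to whole counts (ties to even).

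Genes were filtered with filterByExpr (minimum count 10), leaving 12269, and fitted with edgeR 4.0.16 (R 4.3.3, TMM scaling, quasi-likelihood test, cull day as covariate, Benjamini-Hochberg over all genes). CPM used the TMM-scaled totals and scores a prior count of 2. Totals of 17381439 to 20287628 per library set the precision of low genes. TPM used the table's lengths and the unscaled counts. The fit was tested on simulated data. Motifs were searched in RefSeq promoter windows. Coordinates are 1-based.

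The members, lists and rules were chosen with earlier results of these data known. All 38 members are named. Lowest, median and highest values are given for members past the threshold and for the smallest p in each role. Of other lysosomal genes the rule takes the 5 smallest p in each direction, with Tfe3, Mitf, M6pr and Igf2r. Of marker lists it takes the smallest p of the macrophage, endothelial and stellate lists. A gene under this rule is not reported here, so 4 that rose are named. Alternatives were DESeq2 1.42.0, limma-voom 3.58.1, other scaling and filters, no day term, each day alone, marker scores as covariates, and leaving out mice.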

Additional observations from a re-analysis of the deposited data

Results flagged for a closer look

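Levels were examined for a mouse far from the others of its age, by the gap to its neighbour against the whole range, in 78 sets of values, and 17 stood out where chance gives about 1 in 20. Of these, 12 were old mouse 1187 as the highest old value: Cd63 at 11.3 CPM, Ctsb at 1281, Ctsc at 396, Glb1 at 26.8, Hexa at 122, Man2b1 at 206, Gusb at 58.7, Asah1 at 72.8, Psap at 948, Atp6v0c at 176 and Atp6v1b2 at 82.1 CPM, and the macrophage marker sum at 3357 CPM. The macrophage sum of the same mouse stood apart together with these genes, and its part in them was not tested.

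The other values were single genes in other mice. Mcoln1 was highest in old mouse 1185 at 28.5 CPM with the next at 25.6. Ctsl was lowest in old mouse 1183 at 515 CPM with the next at 652. Galc was highest in old mouse 1238 at 12.1 CPM with the next at 9.51. Glb1 was highest in young mouse 1182 at 15.04 CPM with the next at 12.4. Atp6v1h was highest in young mouse 1239 at 108 CPM with the next at 71.9.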

How the results depend on the processing

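Of the 13 genes that rose, 12 kept their call in all 19 fits that left out 1 mouse, the exception being Ctsh. Numbers called higher ran from 12 to 15 and called lower from 0 to 2 when 1 mouse was left out. In these fits 12.4% to 16.9% of all genes were higher and 12.1% to 15.2% lower. The number of members lower was 0 with library totals, with a mean of at least 1 CPM, with no cull day term, on either day alone and omitting young mice 1184, 1186 and 1188, where Ctsb, Ctsh, Gaa, Glb1 and Ids were also lost. It was 2 with DESeq2 (17.2% of all genes) and with the macrophage score (9.47%) and 3 with the other-cell score (6.38%). The number higher was 3 on the first day alone (1.88% of all genes) and 4 with the other-cell score (6.63%). Limma-voom called 16 higher (16.9% of all genes), with Ctsd, Man2b1 and Naglu added.

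For the other lysosomal genes, the number lower was 5 with library totals (9.53% of all genes), 6 with no cull day term (11.5%), 0 on the first day alone (1.79%), 3 on the second (7.15%) and 5 omitting the 3 young mice (12.5%). The number higher of 110 was 1 on the first day alone (1.88% of all genes), 9 with the macrophage score (9.91%), 8 with the other-cell score (6.63%) and 19 omitting the 3 young mice (14.6%). The first 3 of these are near the share over all genes. Leaving out 1 mouse gave 17 to 31 higher and 6 to 11 lower, 17 being without mouse 1187. Of all genes 12.4% to 16.9% were higher and 12.1% to 15.2% lower in these fits, 12.4% being without mouse 1187. The difference in macrophage marker level was 0.75 on the first day alone (exact permutation p = 0.524) and 0.80 to 1.504 leaving out 1 mouse.

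Signs changed only for members that were not past the threshold, and of the changed values only that of Atp6v1b2 with the other-cell score was called; the causes were not tested. With library totals the log2 fold changes were 0.038 for Scarb2, 0.018 for Mcoln1 and 0.049 for Tfeb, where the median of all genes was 0.042. With a mean of at least 1 CPM they were 0.012 for Scarb2 and 0.0094 for Tfeb. With no low-count filter they were -0.0024 for Ctsl, -0.020 for Arsb and -0.012 for Atp6v0c. Limma-voom gave 0.020 for Scarb2, 0.00068 for Mcoln1, -0.045 for Atp6v0c and -0.032 for Atp6v1b2. With no cull day term they were 0.0037 for Scarb2 and 0.013 for Tfeb. On the first day alone they were 0.020 for Lamp1, 0.050 for Mcoln1, -0.26 for Ctsl, -0.0098 for Manba, 0.019 for Atp6v1h and 0.27 for Tfeb. On the second they were 0.067 for Scarb2, -0.079 for Ctsf, -0.079 for Arsa, -0.060 for Arsb, 0.032 for Smpd1, -0.070 for Atp6v0b and -0.095 for Atp6v0c. Omitting the 3 young mice they were 0.046 for Scarb2, -0.079 for Ctsf, -0.048 for Arsa, -0.051 for Arsb, 0.029 for Smpd1 and -0.018 for Atp6v0c. With the macrophage score they were 0.020 for Mcoln1, -0.13 for Ctsl, -0.031 for Gusb, -0.081 for Atp6v0c, -0.19 for Atp6v1b2 and 0.018 for Tfeb. With the other-cell score they were 0.035 for Mcoln1, -0.20 for Ctsl, -0.049 for Man2b1, -0.015 for Manba, -0.12 for Gusb, -0.14 for Atp6v0c, -0.31 for Atp6v1b2 and 0.0047 for Tfeb. Leaving out 1 mouse gave -0.020 to 0.029 for Scarb2, -0.053 to 0.0037 for Mcoln1, -0.020 to 0.11 for Ctsl, -0.028 to 0.045 for Arsb, -0.053 to 0.065 for Atp6v0c, -0.091 to 0.11 for Atp6v1b2 and -0.10 to 0.050 for Tfeb.

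No paired analysis was possible because the labels give the 2 ages no shared replicate numbers. Cd63 in young mice and Rragd in both ages rest on few reads, with medians of 1.52, 0.469 and 1.36 CPM.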
